A study of Homo sapiens with 6 samples.

Results

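Ribosome footprints on 10 genes of the G1 cyclins and their cyclin-dependent kinase (CDK) inhibitors were examined, out of 19330 genes in the count table. The genes were chosen by symbol: the D-type cyclins CCND1, CCND2 and CCND3, the E-type cyclins CCNE1 and CCNE2, the CIP/KIP inhibitors CDKN1A, CDKN1B and CDKN1C, and the INK4 inhibitors CDKN2C and CDKN2D. The study profiled ribosomes in K562 cells, a human chronic myelogenous leukemia line, to ask how loss of the methyltransferase N6AMT1 affects cytosolic translation. Ribosome profiling (Ribo-Seq) sequences the pieces of mRNA that ribosomes shield from nuclease, and the number of footprints on a coding sequence (CDS) measures its ribosome occupancy.

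Cells of both groups had received the lentiviral Cas9 vector pLentiCRISPRv2, were selected with puromycin for 48 h and were collected 10 days after infection. The 3 sgN6AMT1 libraries came from cells with a guide against N6AMT1. The 3 sgCtrl libraries came from cells with a guide against the olfactory receptor genes OR11A1 or OR2M49, as the labels spell them, and which of these each library carried was not stated. The study's methods give the latter gene as OR2M4 and also list a guide against EGFP among the controls. Each sample was a pool of transduced cells and not a clone, so cells that kept N6AMT1 could remain in it. Per the study, replicates were separate lentiviral infections.

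The D-type cyclins bind CDK4 and CDK6 and, with the E-type cyclins and CDK2, phosphorylate the retinoblastoma protein RB, which frees E2F transcription factors to switch on genes of S phase. INK4 inhibitors block CDK4 and CDK6 alone, whereas CIP/KIP inhibitors bind a wider set of cyclin and CDK complexes. The cyclins among them are short-lived proteins, so their amounts follow synthesis closely. N6AMT1 methylates eRF1, the release factor that reads all stop codons.

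Libraries held between 1821356 and 2969736 counts, and their totals did not separate the groups (exact permutation p = 0.6, 2-sided; 3 against 3 cannot go below 0.1). CPM values below are counts scaled by the normalized library size. For N6AMT1 itself, sgCtrl libraries had 25, 24 and 34 footprints, sgN6AMT1 libraries had 10, 9 and 8, and the fitted change was -1.51 on the log2 scale (SE 0.313, edgeR quasi-likelihood adjusted p = 6.69e-05). N6AMT1 passed the filter on low counts through the sgCtrl libraries, where it was higher. The fit without that filter gave -1.52 (edgeR quasi-likelihood adjusted p = 2.06e-05). K562 identity was checked with 15 erythroid markers, all of which were tested and whose summed level was 31310 to 33160 CPM in sgCtrl and 32760 to 34140 CPM in sgN6AMT1. Footprints follow mRNA abundance as well as translation, and matched RNA sequencing was not analysed here. In bulk libraries a change in the share of cells and a change per cell cannot be told apart.

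N6AMT1 acts on the factor that reads stop codons, and the ends of the coding sequences are shown for 5 of the 6 genes whose groups did not overlap. Averaged over transcripts, the study saw no difference between the groups in footprints at stop codons. Whether stop codons bear on the changes of these genes was not tested. Each line gives the last 12 bases before the stop codon, the stop codon in capitals and 6 bases after it, from GENCODE release 44 transcripts on GRCh38, 5′ to 3′ on the strand of the gene.
CCND1: gacgtggacatcTGAgggcgc
CCND2: gatatcgacctgTGAggatgc
CCND3: gccatacacctgTAGccctgg
CCNE1: ccggaaatggcgTGAccaccc
CDKN1C: aagaggctgcggTGAgccaat
CCND1 and CCND2 share TGA, and CCND3 ends in TAG. Read on the transcript listed for each gene, 6 of the 10 ended in TGA (CCND1, CCND2, CCNE1, CDKN1B, CDKN1C and CDKN2D). Another 3 ended in TAA (CCNE2, CDKN1A and CDKN2C) and 1 in TAG. For the inhibitors the listed transcripts were not the reference (MANE) ones, whose stop codons were not examined. The listed CDS of CDKN1B had 618 bases against 597 in the MANE transcript and lacked part of it. The MANE CDS of CDKN1B could therefore end in another stop codon. Over 8590 tested genes with a CDS, 49.1% ended in TGA, 29.7% in TAA and 21.2% in TAG, with median log2 fold changes of 0.01, -0.01 and 0.03. The 5 tested genes whose listed transcript ended in TGA had log2 fold changes of -1.56 (CCND1), -0.54 (CDKN1C), -0.45 (CCNE1), 0.08 (CDKN1B) and 0.11 (CCND2). Those ending in TAA had -0.62 (CCNE2), 0.18 (CDKN1A) and 0.29 (CDKN2C), and CCND3, ending in TAG, had 0.30.

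Of the 10 genes, 9 passed the filter on low counts and were tested, and CDKN2D did not. CCND1 and CCNE2 were lower and CCND3 was higher in sgN6AMT1, and 6 genes did not pass the threshold of 0.05 on the adjusted p. Over all 9202 genes tested, 26.9% passed in either direction, 12.9% higher and 13.9% lower in sgN6AMT1. The groups did not overlap for 6 of the 9 genes, against 37.5% of all genes tested. The median log2 fold change was 0.08 over the 9 genes and 0.01 over all genes tested. DESeq2, which called 12.3% of its genes, called the same 3 of these 10.

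**Figure D1:**
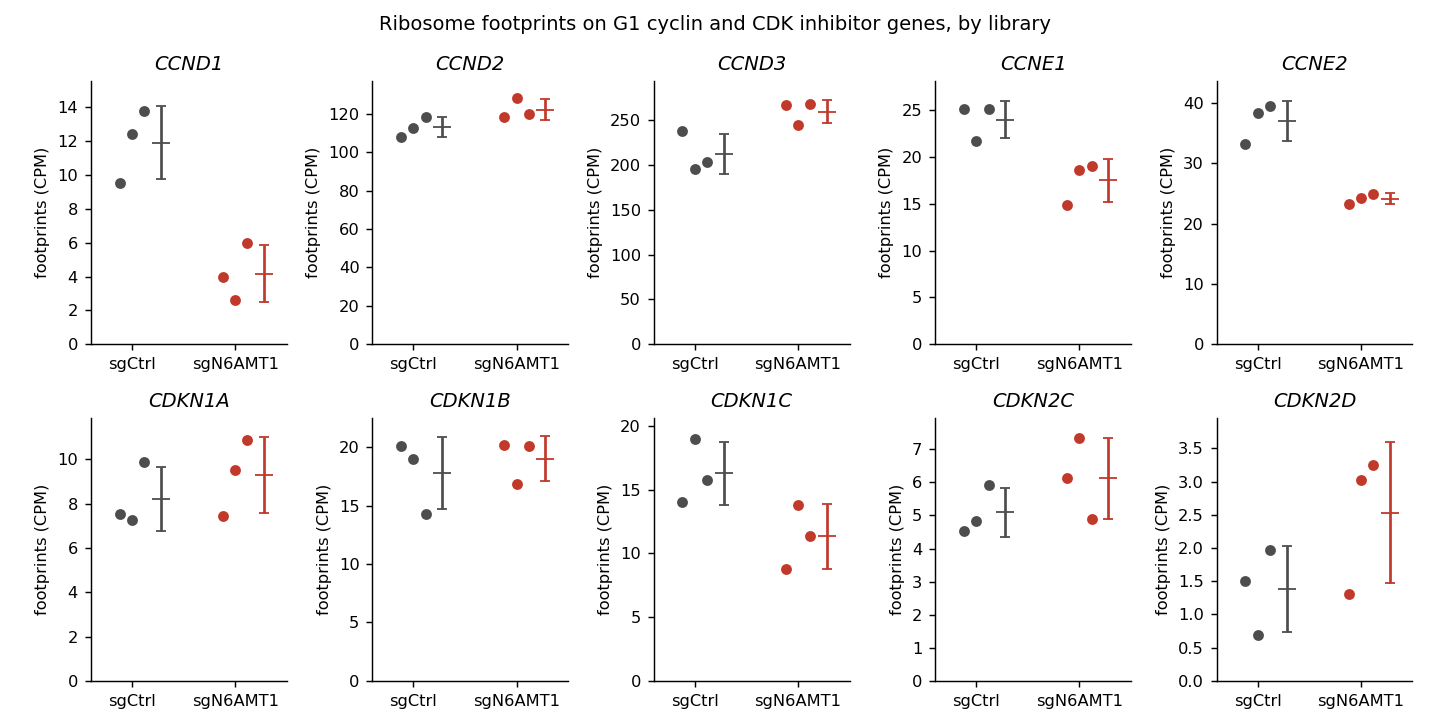
Footprints on each gene in CPM (vertical axes, all from 0) for the 3 sgCtrl libraries (grey points) and the 3 sgN6AMT1 libraries (red points), with the mean and SD beside them. CCND1 fell from 11.9 to 4.17 CPM and CCNE2 from 37.0 to 24.1 CPM on average, CCND3 rose from 212 to 260 CPM, and the groups overlap for CDKN1A, CDKN1B, CDKN2C and CDKN2D.

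Cyclin D1, encoded by CCND1 (chr11:69641156-69654474 on GRCh38, plus strand, 5 exons), is the D-type cyclin best known as a target of growth factor signalling. Its footprint counts were 19, 36 and 28 in sgCtrl and 9, 6 and 11 in sgN6AMT1. In CPM these were 9.54, 12.4 and 13.8 against 3.95, 2.59 and 5.97. Every sgN6AMT1 library lay below every sgCtrl library, and no library stood between the groups. The log2 fold change of CCND1 was -1.56 (SE 0.312, edgeR quasi-likelihood adjusted p = 3.93e-05), 2.94-fold lower in sgN6AMT1 with a 95% interval of -2.17 to -0.94 on the log2 scale. Only 17 of the 9202 genes tested had a lower log2 fold change. CCND1 passed the threshold in all 15 alternative fits that could test it, with log2 fold changes from -1.86 to -1.29. Its counts were small, and the alternative with a mean of at least 50 counts left it out. CCND1 passed the count filter through the sgCtrl libraries, as its sgN6AMT1 counts of 9 and 6 were under the minimum of 10. The fit without a filter gave a log2 fold change of -1.56 (edgeR quasi-likelihood adjusted p = 1.39e-05).

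Cyclin D3, encoded by CCND3 (chr6:41934952-41941808, minus strand, 5 exons), is the D-type cyclin prominent in blood cells. Its footprint counts were 474, 567 and 413 in sgCtrl and 609, 566 and 494 in sgN6AMT1. In CPM these were 238, 196 and 204 against 267, 245 and 268. The lowest sgN6AMT1 library, replicate 2, lay just above the highest sgCtrl library, replicate 1. CCND3 rose 1.23-fold (log2 fold change 0.30, SE 0.0679, edgeR quasi-likelihood adjusted p = 0.000319) and passed in each of the 16 alternatives, where its log2 fold change ran between 0.20 and 0.38. The direction was opposite to that of CCND1.

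Cyclin D2, encoded by CCND2 (chr12:4273762-4305353, plus strand, 5 exons), had 108, 113 and 118 CPM in sgCtrl and 118, 128 and 120 CPM in sgN6AMT1. The groups just failed to overlap, with the highest sgCtrl and the lowest sgN6AMT1 library at about the same level. The log2 fold change of CCND2 was 0.11 (SE 0.0862, edgeR quasi-likelihood adjusted p = 0.35), and its 95% interval ran from -0.05 to 0.28. CCND2 passed in none of the 16 alternatives, and its log2 fold change was 0.0049 after trends with CDS length and GC content were removed. Of the 28-base windows of the CCND2 CDS, 82.2% also occur in the transcripts CCND2P1 and ENSG00000285901 of the annotation, none of them in another transcript of the count table, so footprints of these copies could have been counted as CCND2.

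Per kilobase of CDS, CCND3 and CCND2 carried nearly all D-type footprints and CCND1 few. The summed level of the 3 D-type cyclins was 406, 366 and 383 CPM per kb in sgCtrl and 444, 429 and 450 CPM per kb in sgN6AMT1, so the sum was higher in every sgN6AMT1 library. CCND1 made up 2.65%, 3.82% and 4.06% of this sum in sgCtrl and 1.00%, 0.681% and 1.50% in sgN6AMT1, and its share did not overlap between the groups. The share of CCND3 was 66.8%, 60.8% and 60.5% in sgCtrl and 68.4%, 64.9% and 67.8% in sgN6AMT1, and these ranges overlapped.

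**Figure D2:**
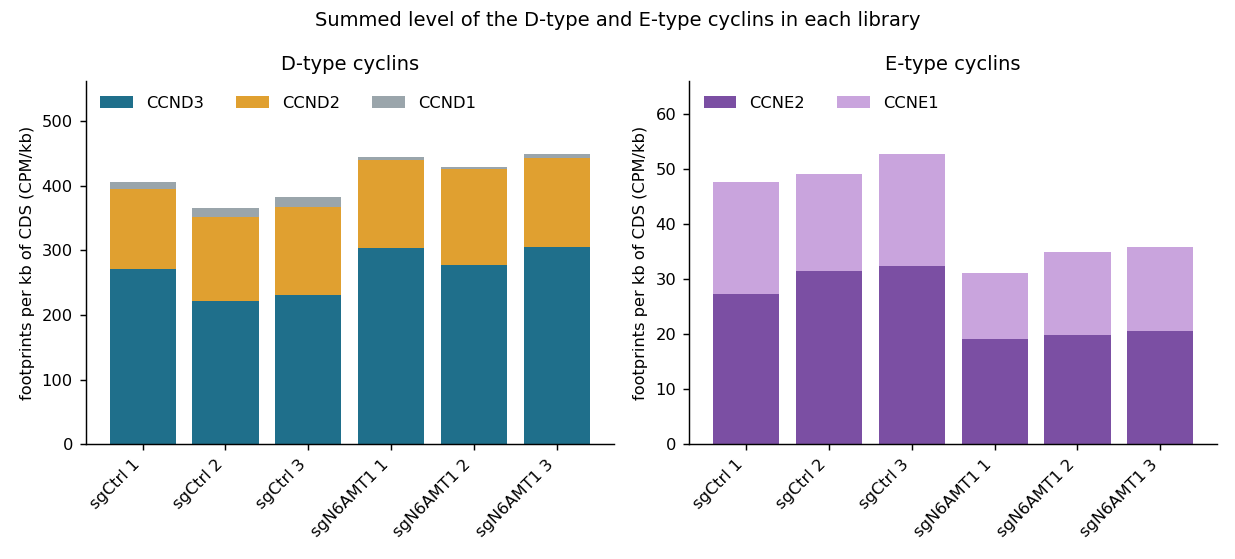
Summed level of the D-type cyclins (left) and E-type cyclins (right) in each of the 6 libraries, in CPM per kb of CDS, with the part of each gene stacked. The D-type sum was 385 ± 20.0 in sgCtrl and 441 ± 10.9 in sgN6AMT1, and the E-type sum was 49.9 ± 2.68 and 34.1 ± 2.51 (mean ± SD, n = 3 libraries).

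The E-type cyclins activate CDK2 at the entry into S phase, and both had lower values in every sgN6AMT1 library. CCNE2 (chr8:94880224-94895201, minus strand, 12 exons) had footprint counts of 66, 111 and 80 in sgCtrl and 53, 56 and 46 in sgN6AMT1. In CPM these were 33.2, 38.3 and 39.4 against 23.2, 24.2 and 25.0. The sgN6AMT1 libraries lay close together, all below sgCtrl. CCNE2 was 1.54-fold lower in sgN6AMT1 (log2 fold change -0.62, SE 0.151, edgeR quasi-likelihood adjusted p = 0.000701) and passed in all 16 alternatives.

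CCNE1 (chr19:29811991-29824312, plus strand, 12 exons) had footprint counts of 50, 63 and 51 in sgCtrl and 34, 43 and 35 in sgN6AMT1. In CPM these were 25.1, 21.7 and 25.1 against 14.9, 18.6 and 19.0, with no overlap. The log2 fold change of CCNE1 was -0.45 (SE 0.185, 95% interval -0.81 to -0.08), which did not pass (edgeR quasi-likelihood adjusted p = 0.0615). It passed in 1 of 15 alternatives, the removal of trends with CDS length and GC content (log2 fold change -0.49, adjusted p = 0.0281). Within the E-type sum, CCNE2 held 60.9% ± 3.46 in sgCtrl and 58.5% ± 2.45 in sgN6AMT1 (SD, n = 3), and these shares overlapped.

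Among the CIP/KIP inhibitors none passed the threshold, and the lowest values relative to sgCtrl were those of CDKN1C. CDKN1C (p57), an imprinted gene at chr11:2883218-2885765 on the minus strand, had footprint counts of 28, 55 and 32 in sgCtrl and 20, 32 and 21 in sgN6AMT1. In CPM these were 14.1, 19.0 and 15.8 against 8.77, 13.8 and 11.4. The groups did not overlap, but the highest sgN6AMT1 library, replicate 2, lay close to the lowest sgCtrl library, replicate 1. The log2 fold change of CDKN1C was -0.54 (SE 0.226, 95% interval -0.99 to -0.10, edgeR quasi-likelihood adjusted p = 0.0624). It passed in 3 of 15 alternatives: without sgCtrl replicate 1 (-0.63, adjusted p = 0.0417), without sgN6AMT1 replicate 2 (-0.73, adjusted p = 0.0438) and with CDS length and GC trends removed (-0.55, adjusted p = 0.0457). The CDKN1C CDS has a GC content of 75.6%, the highest of the 10 genes.

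CDKN1A (p21), the CDK inhibitor that p53 induces, lies at chr6:36676490-36687337 on the plus strand. Its footprint counts were 15, 21 and 20 in sgCtrl and 17, 22 and 20 in sgN6AMT1. The groups overlapped, at 8.21 ± 1.44 CPM and 9.27 ± 1.72 CPM (SD, n = 3). The log2 fold change of CDKN1A was 0.18 (SE 0.278, edgeR quasi-likelihood adjusted p = 0.691), and its 95% interval of -0.37 to 0.72 leaves room for a change in either direction. CDKN1B (p27), which SKP2 marks for degradation at the entry into S phase, lies at chr12:12717822-12721468 on the plus strand. Its footprint counts were 40, 55 and 29 in sgCtrl and 46, 39 and 37 in sgN6AMT1, or 17.8 ± 3.07 CPM and 19.0 ± 1.89 CPM (SD, n = 3). The groups overlapped, and the log2 fold change of CDKN1B was 0.08 (SE 0.195, 95% interval -0.30 to 0.47, edgeR quasi-likelihood adjusted p = 0.797), a sign that turned to -0.04 without sgCtrl replicate 3 and to -0.03 with CDS length and GC trends removed.

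The transcripts listed for the 5 inhibitors were not the reference (MANE) transcripts of their genes, whereas those of the 5 cyclins were. For CDKN1B the listed transcript held 78.9% of the 28-base windows of the MANE CDS, so footprints on the rest could have been missed. For the other 9 genes it held all of them. The summed CIP/KIP level was 62.5 ± 2.80 CPM per kb in sgCtrl and 61.4 ± 4.78 CPM per kb in sgN6AMT1 (SD, n = 3). CDKN1C made up 27.3% ± 3.48 of it in sgCtrl and 19.4% ± 3.98 in sgN6AMT1, with overlapping ranges.

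The INK4 inhibitors had the fewest footprints. CDKN2C (p18), at chr1:50968706-50974634 on the plus strand, had counts of 9, 14 and 12 in sgCtrl and 14, 17 and 9 in sgN6AMT1. These overlapped, and the log2 fold change was 0.29 (SE 0.34, 95% interval -0.37 to 0.96, edgeR quasi-likelihood adjusted p = 0.575). CDKN2D (p19), at chr19:10566601-10569059 on the minus strand, had counts of 3, 2 and 4 in the control libraries against 3, 7 and 6. It was under the count filter, and the fit without a filter gave a log2 fold change of 0.89 (SE 0.642, edgeR quasi-likelihood adjusted p = 0.395). The other INK4 genes, CDKN2A and CDKN2B, had 0 counts in all 6 libraries, which allows up to 1.01 to 1.65 CPM, at 3 counts per library. These limits cover counting error only.

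Levels of different genes were set side by side per kilobase of CDS. In sgCtrl, CCND3 (242 ± 25.7 CPM per kb) was highest, followed by CCND2 (130 ± 5.94), CCNE2 (30.4 ± 2.75) and CDKN1B (28.8 ± 4.97). CCND3 lay above CCND2 and CCND2 above the others in every sgCtrl library, while CCNE2 and CDKN1B overlapped. CCNE1 (19.5 ± 1.60), CDKN1C (17.1 ± 2.61), CDKN1A (16.6 ± 2.90), CCND1 (13.4 ± 2.45) and CDKN2C (10.0 ± 1.45) followed, each overlapping its neighbour, and CDKN2D was lowest at 2.77 ± 1.30. The median over 8607 genes with a CDS was 24.3 CPM per kb in sgCtrl, so 4 of the 10 genes were above it. In sgN6AMT1 the order of the highest pair held, with CCND3 at 296 ± 15.1 and CCND2 at 141 ± 6.15 CPM per kb. CDKN1B (30.8 ± 3.06) then lay above CCNE2 (19.9 ± 0.718) with no overlap, and CCND1 (4.70 ± 1.92) came last beside CDKN2D (5.05 ± 2.12), with overlap. In sgCtrl 34.6% of those genes were below CCND1, and in sgN6AMT1 9.75% were.

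**Figure D3:**
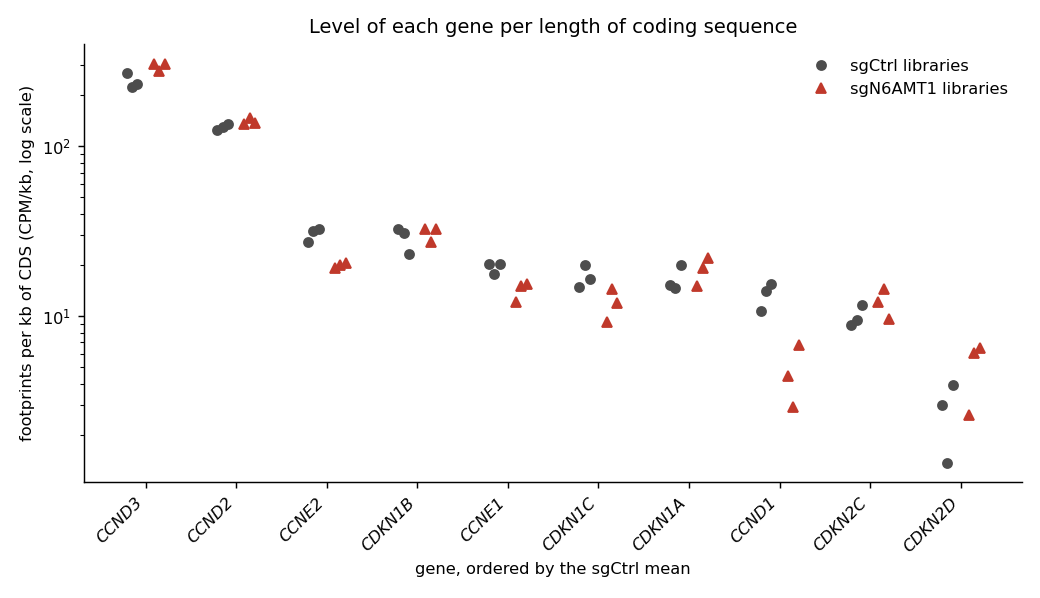
Level of each gene in CPM per kb of CDS (vertical axis, log scale) in the 3 sgCtrl libraries (grey circles) and the 3 sgN6AMT1 libraries (red triangles), ordered by the sgCtrl mean. CCND3 and CCND2 lie above all other genes in both groups, and CCND1 moves from 13.4 to 4.70 CPM per kb on average.

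**Figure D4:**
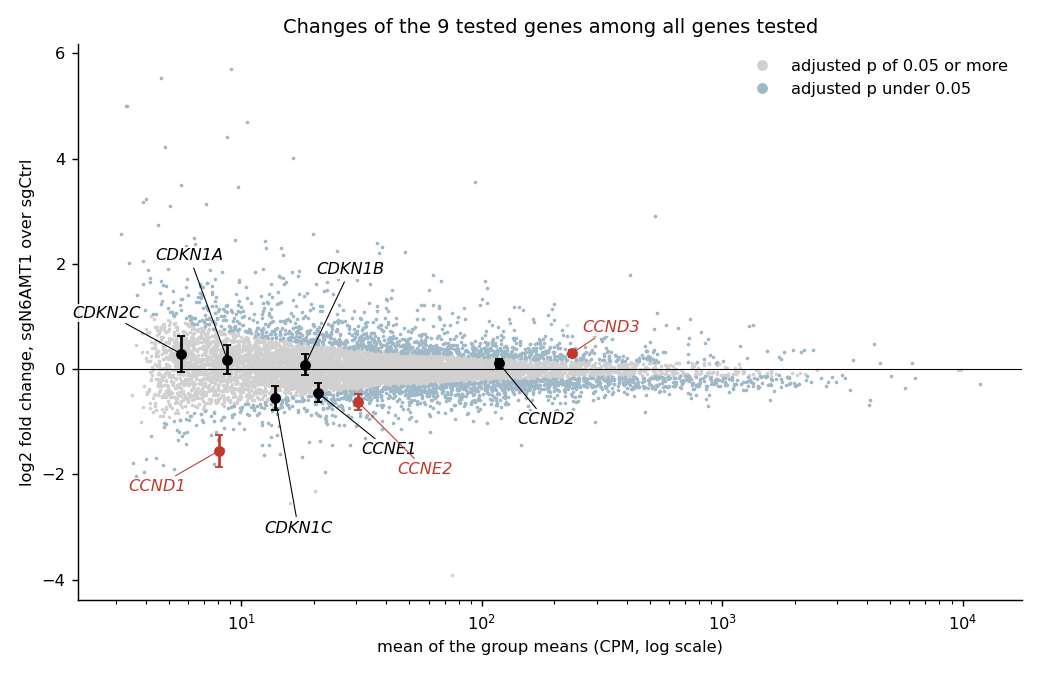
Log2 fold change of sgN6AMT1 over sgCtrl (vertical axis) against the mean of the group means in CPM (horizontal axis, log scale) for 9202 genes, coloured by whether the adjusted p was under 0.05. The 9 tested genes are drawn with their SE, those past the threshold in red: CCND1 at -1.56, CCNE2 at -0.62 and CCND3 at 0.30.

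The 3 genes with a mean of at least 50 CPM whose log2 CPM most resembled that of CCND1 over the 6 libraries were ABCB10, a mitochondrial transporter (Pearson r = 0.996), FECH, the last enzyme of heme synthesis (r = 0.994), and PLAA (r = 0.991). Their own log2 fold changes were -0.28, -0.58 and -0.13, of which those of ABCB10 and FECH passed (edgeR quasi-likelihood adjusted p = 0.0282 and 1.98e-05), ABCB10 losing its call in 7 of 16 alternatives. For CCND3 they were SYNRG (r = 0.982), SRP14 of the signal recognition particle (r = 0.978) and COPS6 of the COP9 signalosome (r = 0.972). Their log2 fold changes were 0.21, 0.24 and 0.21, of which those of SRP14 and COPS6 passed (adjusted p = 0.00107 and 0.0232), COPS6 losing its call in 8 of 16 alternatives. These r are descriptions over 6 libraries that share depth and the difference between the groups, and 270 of 3661 genes reached an r of 0.9 with CCND1 and 70 with CCND3.

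Of the kinases these proteins act on, CDK6 passed the threshold and CDK4 and CDK2 did not. CDK6, a partner of the D-type cyclins, fell from 94.2 ± 1.10 to 72.4 ± 6.10 CPM (SD, n = 3; log2 fold change -0.37, edgeR quasi-likelihood adjusted p = 0.00278). CDK4, the other partner, had 178 ± 14.6 and 156 ± 14.0 CPM, which overlapped (log2 fold change -0.18, adjusted p = 0.0723). CDK4 passed in 3 of 16 alternatives: with CDS length and GC trends removed (-0.28, adjusted p = 0.000335), without sgCtrl replicate 1 (-0.21, adjusted p = 0.0449) and without sgN6AMT1 replicate 2 (-0.26, adjusted p = 0.0343). CDK2, the partner of the E-type cyclins, had a log2 fold change of -0.10 (adjusted p = 0.515). Of the 8 G1 kinases and their activators, CDK6 alone passed, and the median log2 fold change was -0.05. For this list and those below, the share over all genes tested was 26.9%, with 12.9% higher and 13.9% lower.

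RB1, the substrate of these kinases, had a log2 fold change of 0.0075 (SE 0.115, edgeR quasi-likelihood adjusted p = 0.975), with a sign that depended on the setting. Of 15 tested genes of the RB family, E2F and the DREAM repressor complex, 2 were higher and 1 lower, with a median of -0.13. They were LIN54 (0.51, adjusted p = 0.0489) and LIN52 (1.00, adjusted p = 0.00514) of DREAM, and RBBP4 (-0.15, adjusted p = 0.014). LIN54 lost its call in 7 of 15 alternatives, RBBP4 in 3 of 16, and LIN52 in 1 of 15 (DESeq2, adjusted p = 0.0984). LIN52 was named after its values were seen. It passed the count filter through the sgN6AMT1 libraries, as its count of 9 in sgCtrl replicate 3 was under the minimum of 10. The fit without a filter gave a log2 fold change of 0.99 (edgeR quasi-likelihood adjusted p = 0.00729).

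Of 13 tested genes that turn over G1 cyclins and CDK inhibitors, 2 were higher and 4 lower, with a median of -0.10. SKP2, the F-box protein that targets CDKN1B, fell from 86.9 ± 3.66 to 59.0 ± 4.81 CPM (log2 fold change -0.56, edgeR quasi-likelihood adjusted p = 2.33e-05). Its cofactor CKS1B rose from 182 ± 11.0 to 240 ± 11.7 CPM (0.41, adjusted p = 1.02e-06). AMBRA1, the receptor that targets D-type cyclins for degradation, rose from 46.5 ± 2.91 to 66.5 ± 2.25 CPM (0.52, adjusted p = 0.000238). UBAC1, of the ligase for CDKN1B in the cytoplasm, fell by 0.24 on the log2 scale (adjusted p = 0.00466), and CUL3, a ligase scaffold acting on cyclin E, fell by 0.29 (adjusted p = 0.0282), a call lost in 6 of 16 alternatives.

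Downstream of RB, 16 genes of S phase entry that E2F controls were tested, of which 2 were higher and 4 lower, with a median of -0.03. POLA1, the catalytic subunit of DNA polymerase alpha, fell from 122 ± 4.85 to 62.2 ± 13.5 CPM (log2 fold change -0.99, edgeR quasi-likelihood adjusted p = 2.16e-13). RRM2, of ribonucleotide reductase, fell by 0.24 (adjusted p = 0.000719), and MCM4 of the replicative helicase by 0.17 (adjusted p = 0.0102), lost in 3 of 16 alternatives, while MCM3 of the same helicase rose by 0.21 (adjusted p = 0.00193). Of 5 tested cyclins and kinases of S phase and mitosis, 2 were higher and none lower, with a median of -0.05. CDK1 rose by 0.22 (adjusted p = 0.000696). CCNA2, named after its values were seen, had a log2 fold change of 0.19 (adjusted p = 0.0327) with overlapping groups, a call lost in 6 of 15 alternatives, and its value was 0.08 without sgN6AMT1 replicate 1 (adjusted p = 0.515).

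Of 13 tested targets of p53 other than CDKN1A, 4 were higher and 1 lower, with a median of 0.16. TNFRSF10B, a death receptor, rose from 13.9 ± 1.16 to 29.4 ± 3.19 CPM (log2 fold change 1.10, edgeR quasi-likelihood adjusted p = 8.94e-07). BTG2, an antiproliferative gene, rose by 0.75 (adjusted p = 0.00179) and the stress gene SESN2 by 0.37 (adjusted p = 0.0145), calls lost in 1 of 15 and 3 of 16 alternatives. Of 4 tested transcription factors that act on promoters of the 10 genes, 2 were higher and none lower, with a median of 0.45: KLF6 (1.43, adjusted p = 2.61e-10) and FOXO3 (0.52, adjusted p = 0.0239), the latter lost in 4 of 15 alternatives. Over all of these lists, 74 of 88 genes were tested, 14 were higher and 11 lower. Of all 9202 genes tested, 12.9% were higher and 13.9% lower.

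**Figure D5:**
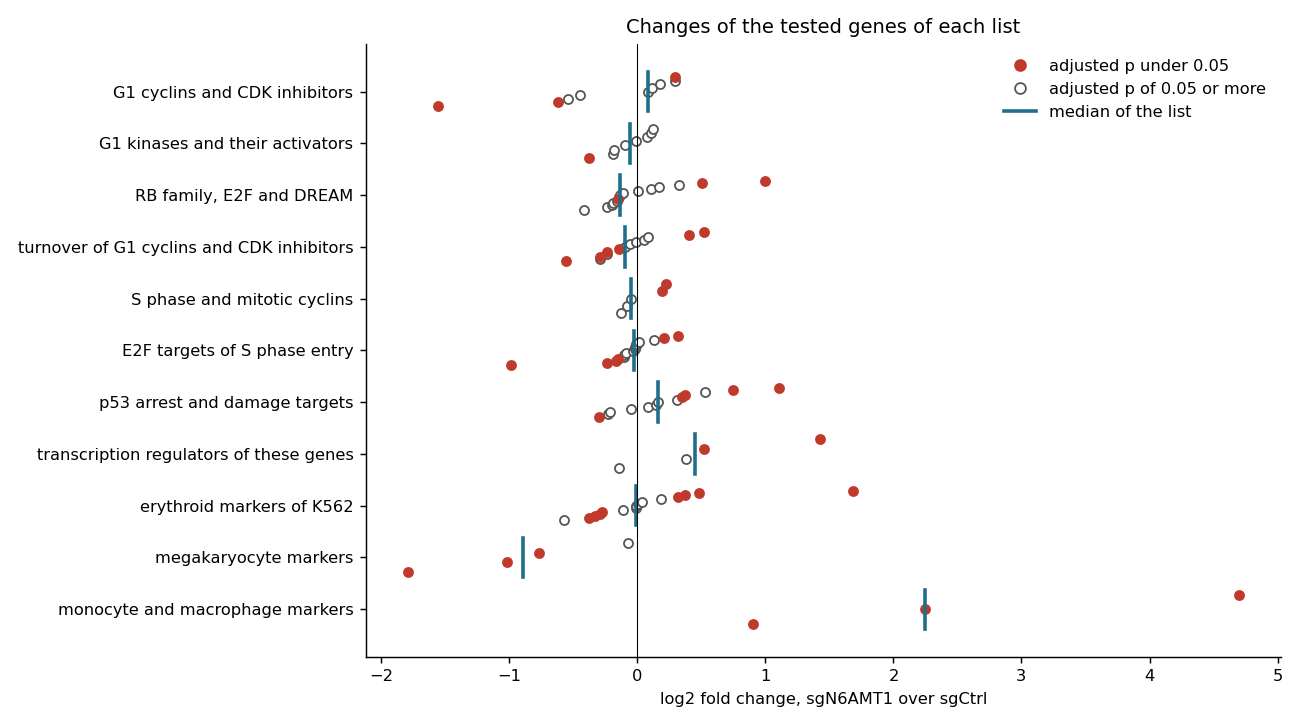
Log2 fold change of sgN6AMT1 over sgCtrl (horizontal axis) of each tested gene, by list, with genes at an adjusted p under 0.05 in red and the list's median as a blue line. The 9 tested G1 cyclins and CDK inhibitors run from -1.56 (CCND1) to 0.30 (CCND3), around a median of 0.08.

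Markers of other blood lineages moved with the groups beside CCND1, CCND3 and CCNE2. Of 8 monocyte and macrophage markers, 3 were tested, CD68 and LYZ were higher, and FCGR1A passed the count filter only through the sgN6AMT1 libraries. The 8 markers had summed levels of 60.6 to 71.0 CPM in sgCtrl and 166 to 177 CPM in sgN6AMT1, and CD14 and CD163 were at 0 counts in all libraries. CD68 had a log2 fold change of 2.25 (edgeR quasi-likelihood adjusted p = 4.3e-18) and LYZ of 0.90 (adjusted p = 2.46e-11). The counts of FCGR1A were 3, 0 and 2 in sgCtrl against 52, 39 and 39. Of 10 megakaryocyte markers, 4 were tested and 3 were lower, GP1BB by 1.02 on the log2 scale (adjusted p = 3.01e-15), with summed levels of 163 to 180 CPM in sgCtrl and 75.0 to 98.8 CPM in sgN6AMT1, and GP1BA, PF4 and VWF were among those at 0. Another of the 3 lower markers passed the count filter only through the sgCtrl libraries, where it was higher. Of the 15 erythroid markers, 4 were higher and 4 lower, with a median of -0.01, among them ALAS2 (1.68, adjusted p = 1.59e-27), HBE1 (0.48, adjusted p = 1.46e-17), HBA1 (0.37, adjusted p = 3.38e-11), KLF1 (-0.37, adjusted p = 0.00094), TFRC (-0.33, adjusted p = 1.49e-09) and GATA1 (-0.29, adjusted p = 0.000135). The part of these states in the values of the G1 cyclins and CDK inhibitors was not tested.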

How the data were processed

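The authors trimmed reads with cutadapt, kept footprint lengths, removed rRNA and tRNA reads after HISAT2 mapping to GRCh38, mapped the rest to 1 canonical transcript per gene with Bowtie2 and summed P-sites over each CDS. They also counted overlaps with a gene annotation, and which of these the deposited table of raw whole-number counts holds is not stated. No molecular identifiers are described, so duplicated PCR reads count separately.

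All genes were fitted with edgeR 4.0.16 in R 4.3.3 (filterByExpr with a minimum of 10 counts, TMM factors, robust quasi-likelihood fit and 2-sided F test, Benjamini-Hochberg over 9202 genes, threshold 0.05). The 10128 genes removed held 0.465% of counts. CPM per kb is CPM over the CDS length of the listed transcript in GENCODE release 44, in which 17687 transcripts (91.5%) matched. A window is shared where 28 bases are identical. The SE is derived from the F statistic. There were 16 alternatives: DESeq2 1.42.0, limma-voom (limma 3.58.1), RLE or upper-quartile factors, total counts, no filter, a mean of at least 50 counts, the replicate block, removal of loess trends on CDS length and GC content, thinning to the smallest library and leaving out each library.

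The 10 genes and the lists were chosen with earlier results of these data known. The genes named were these 10, N6AMT1, CDK2, CDK4, CDK6, RB1, SKP2, up to 3 increases and 3 decreases per list (adjusted p under 0.05, mean level of 10 CPM or more, groups not overlapping), and the 3 genes most like CCND1 and CCND3. In the lists, 3 genes were not analysed here, and 1 marker is not reported here. In simulated counts for this comparison, edgeR recovered 89.2% of genes changed 2-fold and 67% of those changed 1.5-fold, among 9158 genes. DESeq2 recovered 56.8% and 41%, among 13222 genes. Every simulated gene had the same biological variation of 4.36%, and only genes with a mean of at least 10 counts were changed. Recovery could therefore be lower for genes that vary more or have fewer counts.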

Additional observations from a re-analysis of the deposited data

How the results depend on the processing

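CCND1, CCND2, CCND3, CCNE2, CDKN1A and CDKN2C kept their direction and their side of the threshold in every alternative that tested them, and 33 of 49 tested genes named here did so, these 6 included. Over all genes 2473 passed with edgeR and 1324 with DESeq2, and 1859 to 2322 with a library left out. With total counts and no factors, 38.5% of calls were lower against 51.8%, and the median gene moved by 0.05 on the log2 scale. Of the 10 genes 3 passed, but 5 did with CDS length and GC trends removed (CCNE1 and CDKN1C added). Of the listed pathway genes 25 passed, against 14 with DESeq2 and 16 with a mean of at least 50 counts. The log2 fold change of CDKN1B was -0.0309 with the trends removed and -0.0392 to 0.169 with a library left out. That of RB1 was -0.000798 with DESeq2, -0.0024 without a filter and -0.0705 to 0.116 with a library left out. The cause of these changes was not tested. The replicate numbers did not pair the libraries: same-numbered libraries had correlations of -0.14, 0.04 and 0.0033 in their deviations from the group means over 5874 genes. With the replicate block 2390 genes passed, 3 of the 10 genes and 23 pathway genes. Depth limits CCND1, CDKN1A, CDKN2C and CDKN2D most: none had over 36 counts in a library.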

Other observations

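The tested genes within 1 Mb of each gene were also examined. Around CCND1, 11 neighbours were tested, of which 4 were lower and none higher, with a median log2 fold change of -0.14 against -0.05 for the 522 tested genes of chromosome 11. Around CCND3, 12 neighbours had 3 higher and 3 lower and a median of 0.02. Around CCNE2, 6 neighbours had 1 higher and 1 lower and a median of 0.13. The shares over all genes tested were 12.9% higher and 13.9% lower.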
